A study of Populus x canadensis with 12 samples.

Results

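The 5 phenylalanine ammonia-lyase (PAL) genes of poplar were followed in leaf RNA of 12 single plants. They were taken by locus from a table of 41335 gene models: Potri.006G126800.1, Potri.008G038200.1, Potri.016G091100.1, Potri.010G224100.1 and Potri.010G224200.1. Each locus matched 1 row, and all 5 passed the filter on low values (at least 1 RPKM in at least 4 libraries), as did 24117 genes in all. RPKM divides the reads of a gene by the length of its model and by the depth of the library. Genes of unlike length and libraries of unlike depth can thus be set side by side. The size of changes between plants still depends on the scaling chosen, as given below. The genes are called PAL1 to PAL5 below in the order just given, which is the numbering used for these poplar loci; the table itself holds only the IDs. The number before the G in an ID is its chromosome, so PAL1 lies on chromosome 6, PAL2 on 8, PAL3 on 16, and PAL4 and PAL5 on 10. PAL4 and PAL5 stand in adjacent rows of the table and carry successive locus numbers.

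Rooted cuttings of hybrids 85 and 89 were used, both from a cross of a Populus deltoides female with a Populus nigra male (Populus x canadensis), raised in pots in a greenhouse. Each hybrid gave 2 plants to each of 3 stages: control with normal watering (C), drought called moderate (D1) and drought called severe (D2). Droughted plants went 8 or 13 days without water, and the labels do not say which period belongs to which stage. Every library carries another clone number, so the replicates were separate plants. The labels used here do not give the day of harvest, so drought and the passing of time cannot be told apart. Both drought stages are set against the same control plants throughout.

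PAL removes ammonia from phenylalanine to give cinnamic acid, the first committed step of the phenylpropanoid pathway. From cinnamic acid a plant makes lignin, flavonoids and condensed tannins, and poplar leaves also make salicinoids, the phenolic glycosides typical of the willow family. By sequence, PAL1 and PAL3 form a pair of close copies, while PAL2, PAL4 and PAL5 form another group that is known in Populus from wood-forming tissue. How reads that fit several copies were handled is not given in the sources used here. The division of reads within each of these groups is therefore uncertain. The other genes of the pathway and the marker genes of leaf cell types were not analysed here, since no annotation pairs their names with the IDs; the leaf label was therefore not checked against markers. In RNA from whole leaves, fewer cells of a type and less RNA per cell cannot be told apart.

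Library totals, recovered from the steps of the RPKM values, ranged from 2259634 to 10509089 reads. Values of the PAL genes rested on 23 to 3133 reads each, the fewest for PAL5 in replicate 1 of hybrid 85 in D1. Replicate 1 of hybrid 89 in D2 stood apart from the other libraries, with a mean correlation of 0.862 with the other D2 libraries against 0.903 to 0.915 for those; values without it are given beside the calls that rest on it.

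PAL1 had the highest mean level of the 5 genes and PAL5 the lowest. Over the 12 libraries, the mean level was 214 RPKM for PAL1, 109 for PAL2, 59.1 for PAL3, 42.7 for PAL4 and 14.8 for PAL5. PAL1 was above 97.4% of the tested genes by mean RPKM and PAL5 above 63.0%. The coding lengths recovered for them were close, 2124 to 2148 bp. This order did not hold plant by plant. PAL2 was the highest of the 5 in each D1 plant, and PAL1 was the highest in each D2 plant. In C the lead was split, with PAL2 first in replicate 1 of both hybrids and PAL1 first in replicate 2 of both. Transcript levels of each gene in each plant are plotted next.

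**Figure D1:**
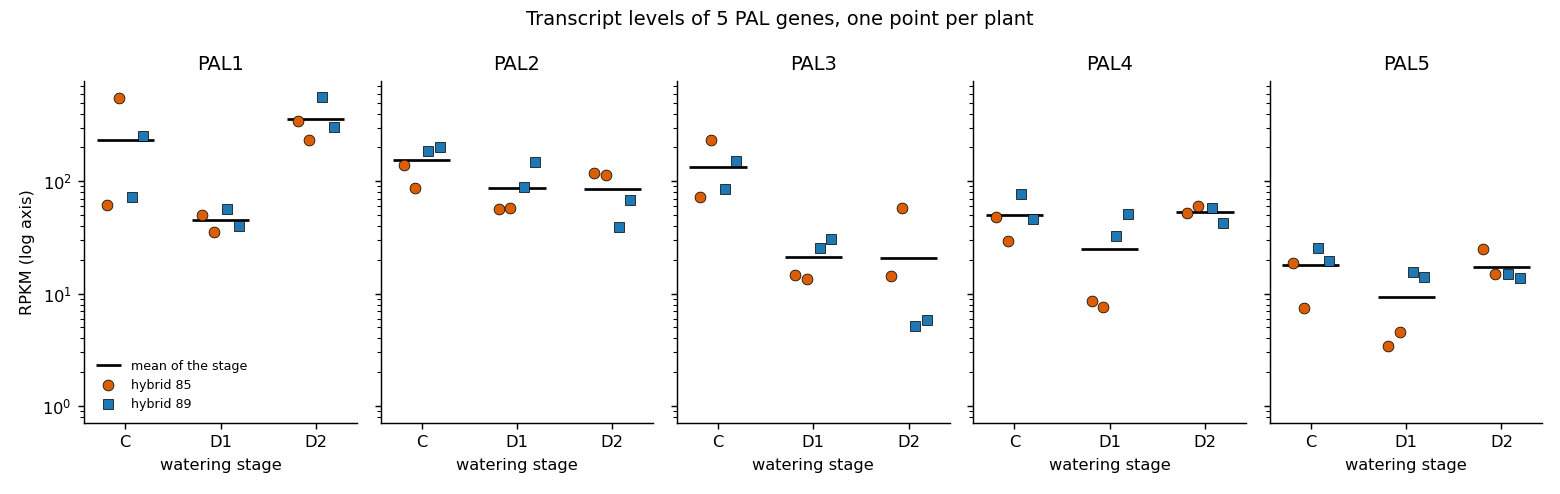
RPKM (log axis) of the 5 PAL genes at each stage (C, control; D1 and D2, moderate and severe drought); each point is 1 plant, orange circles are hybrid 85, blue squares hybrid 89, and the bar is the mean of 4 plants. PAL1 is low in D1 and high in D2, PAL3 is low in both, and PAL4 and PAL5 in D1 are lowest in hybrid 85.

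PAL1 was low under moderate drought and high under severe drought. In C it stood at 61.2 and 547 RPKM in hybrid 85 and at 72.8 and 255 RPKM in hybrid 89. In D1 it stood at 50.4 and 35.3 RPKM in hybrid 85 and at 56.6 and 39.6 RPKM in hybrid 89. In D2 it stood at 342 and 232 RPKM in hybrid 85 and at 568 and 307 RPKM in hybrid 89. The 4 D2 plants lay above all D1 plants, and the 4 D1 plants lay below all C plants, while C and D2 overlapped. Among all genes tested, 14% had all D2 plants above all D1 plants and 5.57% had all D1 plants below all C plants. The mean (± SD, n = 4) was 234 ± 227 RPKM for control plants, 45.5 ± 9.76 for D1 plants and 362 ± 145 for D2 plants. From D1 to D2 PAL1 rose by 2.91 ± 0.58 on the log2 scale (SE, limma adjusted p = 0.00194), and the ratio of the means was 7.96. Without replicate 1 of hybrid 89 in D2 the change was 2.66 (limma adjusted p = 0.00545).

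PAL1 was called against the control in neither drought stage. The log2 change was -1.80 ± 0.58 in D1 (limma adjusted p = 0.0881) and 1.11 ± 0.58 in D2 (limma adjusted p = 0.141). The control plants were the most spread group, with a highest value 8.94 times the lowest, against 1.60 times in D1 and 2.45 times in D2. Both control plants with high PAL1 were the replicate 2 libraries, which were also the shallow ones: they held 2647763 and 2534325 reads, against 10509089 and 6138710 in the replicate 1 libraries. The counting error alone is small beside this gap, with a 95% exact Poisson interval of 528 to 567 RPKM for the highest control and 58.0 to 64.5 RPKM for the lowest. The part of depth in the gap was not tested. The calls turn on these plants: without replicate 1 of hybrid 85 in C, PAL1 passed in D1 (-2.29, limma adjusted p = 0.0329), and without replicate 2 of hybrid 85 in C it passed in D2 (1.80, limma adjusted p = 0.00538).

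PAL3, the close copy of PAL1, fell in both drought stages. In C it stood at 72.8 and 232 RPKM in hybrid 85 and at 86.2 and 151 RPKM in hybrid 89. In D1 it stood at 14.6 and 13.5 RPKM in hybrid 85 and at 25.5 and 30.7 RPKM in hybrid 89. In D2 it stood at 14.4 and 57.6 RPKM in hybrid 85 and at 5.15 and 5.80 RPKM in hybrid 89. All 8 droughted plants were below all 4 control plants, an order that 5.57% of all genes tested had for D1 and 17.5% for D2. The lowest D2 value rested on 26 reads, with a 95% exact Poisson interval of 3.37 to 7.55 RPKM. Mean levels (± SD, n = 4) were 135 ± 72.8 RPKM for control plants, 21.1 ± 8.39 for D1 plants and 20.7 ± 24.9 for D2 plants. The log2 change was -2.55 ± 0.60 in D1 (SE, limma adjusted p = 0.0281) and -3.14 ± 0.60 in D2 (limma adjusted p = 0.00116). The D2 mean was carried by replicate 2 of hybrid 85, and the median was 118 RPKM for control plants, 20.0 for D1 plants and 10.1 for D2 plants. Without that plant the D2 change was -3.82 (limma adjusted p = 7.96e-05), and without replicate 1 of hybrid 89 in D2 it was -2.79 (limma adjusted p = 0.00355).

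Of the 5 genes, PAL3 was the one called against the control in each stage. Among all genes tested, 2.42% were called lower in D1 and 19.2% in D2, so 1 of 5 genes lower in D2 is close to the background. The split of all calls depends on scaling: 758 genes were higher and 584 lower in D1, against 715 and 955 with quantile normalization and 524 and 958 with median-ratio scaling. The D1 call of PAL3 is close to the threshold. It was lost without replicate 2 of hybrid 85 in C (limma adjusted p = 0.0920), without replicate 1 or 2 of hybrid 89 in C (0.0647 and 0.0870), and without replicate 1 or 2 of hybrid 85 in D1 (0.0902 and 0.0926). It was also lost when no filter on low values was set (limma adjusted p = 0.0511). The D2 call held with each library left out in turn, with log2 changes of -3.82 to -2.79. No change of PAL3 from D1 to D2 was detected (-0.58 ± 0.60, limma adjusted p = 0.486).

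The balance between the close copies PAL1 and PAL3 was far from even in severe drought. PAL1 had 0.840, 2.36, 0.845 and 1.69 times the RPKM of PAL3 in the 4 control plants, and 3.44, 2.61, 2.22 and 1.29 times in the 4 D1 plants, listed from replicate 1 of hybrid 85 to replicate 2 of hybrid 89. In the D2 plants, in the same order, the ratio was 23.7, 4.02, 110 and 53.0. The D2 ratios lay above all others, and the smallest of them belonged to replicate 2 of hybrid 85, the D2 plant with the most PAL3 and the least PAL1. PAL1 and PAL3 ranked the 4 control plants alike, while the D2 plant with the most PAL1 had the least PAL3. On the log2 scale the ratio differed by 4.40 between D2 and C and by 3.60 between D2 and D1 (exact permutation p = 0.0286 for each, two-sided, the smallest that 4 against 4 plants can give). These tests were chosen after the values were seen, as 2 of 30 over the 10 pairs of genes and 3 stage comparisons. Of the 30, 7 reached the smallest p and 0 passed after Benjamini-Hochberg adjustment over the 30 (adjusted p = 0.122 for these exact tests). A test could pass this adjustment only if most of the 30 reached the smallest p, so no conclusion is drawn from the 0. The permutations did not keep plants within their hybrid.

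**Figure D2:**
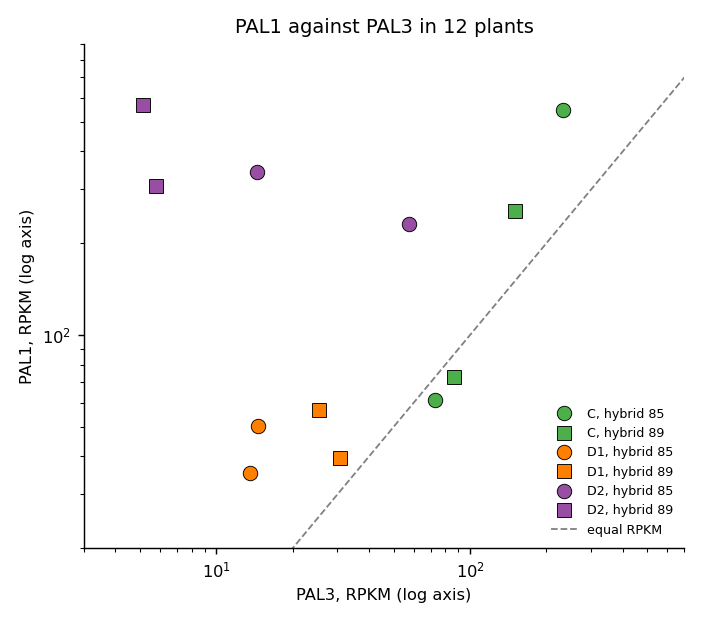
RPKM of PAL1 against RPKM of PAL3 (both axes log) in 12 plants; colour gives the stage, circles are hybrid 85, squares hybrid 89, and the dashed line marks equal RPKM. D2 plants lie at the upper left with ratios of 4.02 to 110, and control plants lie along the line with ratios of 0.840 to 2.36.

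PAL2, of the group known from wood-forming tissue, was lower in severe drought in hybrid 89. In C it stood at 140 and 86.5 RPKM in hybrid 85 and at 185 and 203 RPKM in hybrid 89. In D1 it stood at 56.4 and 57.4 RPKM in hybrid 85 and at 89.0 and 148 RPKM in hybrid 89. In D2 it stood at 119 and 113 RPKM in hybrid 85 and at 39.1 and 68.6 RPKM in hybrid 89. With both hybrids pooled the stages overlapped, and the order of the hybrids was not the same in each stage: both plants of hybrid 89 were above both of hybrid 85 in C and D1, and below both in D2. Among all genes tested, hybrid 89 lay wholly above hybrid 85 in 10.7% within C and 35.4% within D1, and wholly below it in 23.2% within D2.

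Over both hybrids PAL2 passed in neither drought stage. Its mean (± SD, n = 4) was 153 ± 52.0 RPKM for control plants, 87.8 ± 43.1 for D1 plants and 84.9 ± 38.0 for D2 plants. The log2 change was -0.84 ± 0.41 in D1 (SE, limma adjusted p = 0.254) and -0.90 ± 0.41 in D2 (limma adjusted p = 0.0951). It passed in D2 with quantile normalization (-1.21, limma adjusted p = 0.0286) and without replicate 1 of hybrid 85 in D2 (-1.17, limma adjusted p = 0.0467), and in D1 with the D2 libraries left out of the fit (limma adjusted p = 0.0382). Within hybrid 89, where 2 plants stood against 2, PAL2 fell in D2, with a log2 change of -1.88 ± 0.35 against C (limma adjusted p = 0.00182). PAL2 and PAL3 were the 2 of 5 genes called lower there, where 17% of all genes tested were. PAL2 was still called, at -1.48, without replicate 1 of hybrid 89 in D2 (limma adjusted p = 0.0103). Within hybrid 85 the change was 0.08 ± 0.35 (limma adjusted p = 0.896). The test of the difference between these changes gave -1.96 ± 0.49 (limma adjusted p = 0.0882, unadjusted p = 0.00232), which missed the threshold. With each library left out in turn this difference ran from -2.36 to -1.56. The value of -2.36 came without replicate 2 of hybrid 89 in D2. That fit left replicate 1, the library that stood apart, as the only D2 plant of hybrid 89, so no call is taken from it.

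PAL4 and PAL5, the neighbours on chromosome 10, were lowest in moderate drought in hybrid 85. In C, PAL4 stood at 47.9 and 29.4 RPKM in hybrid 85 and at 77.4 and 46.0 RPKM in hybrid 89. In D1, PAL4 stood at 8.68 and 7.61 RPKM in hybrid 85 and at 32.5 and 51.6 RPKM in hybrid 89. In D2, PAL4 stood at 52.2 and 59.99 RPKM in hybrid 85 and at 57.6 and 42.2 RPKM in hybrid 89. The D1 plants of hybrid 85 lay below the 10 other plants, and the D1 plants of hybrid 89 were within the range of the C and D2 plants. PAL5, at a lower level, stood at 18.6, 7.47, 25.5 and 19.7 RPKM in C, 3.40, 4.56, 15.6 and 14.2 in D1, and 25.2, 14.9, 15.0 and 13.9 in D2, from replicate 1 of hybrid 85 to replicate 2 of hybrid 89. Its D1 plants of hybrid 85 were again the lowest of the 12. The share of all genes with this order was not counted. Within D1 alone, hybrid 89 lay wholly above hybrid 85 in 35.4% of all genes tested.

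With both hybrids pooled, PAL4 was called higher in severe than in moderate drought. In hybrid 85 it went from 8.68 and 7.61 RPKM in D1 to 52.2 and 59.99 in D2. In hybrid 89 the plants overlapped, at 32.5 and 51.6 RPKM in D1 and 57.6 and 42.2 in D2. The change from D1 to D2 was not tested within each hybrid. The mean of PAL4 (± SD, n = 4) was 50.2 ± 20.0 RPKM for control plants, 25.1 ± 21.1 for D1 plants and 53.0 ± 7.92 for D2 plants. Over both hybrids the change from D1 to D2 was 1.45 ± 0.41 on the log2 scale (SE, limma adjusted p = 0.0164). With PAL1 this made 2 of 5 genes called higher in D2 than in D1, where 15.8% of all genes tested were. The change of PAL4 was 1.57 when replicate 1 of hybrid 89 in D2 was left out (limma adjusted p = 0.0188). Its call was lost without any one of 4 plants of hybrid 85. Without replicate 1 or 2 of hybrid 85 in D1 the adjusted p was 0.0520 and 0.0557, and without replicate 1 or 2 of hybrid 85 in D2 it was 0.0524 and 0.0518 (limma). PAL5 had means (± SD, n = 4) of 17.8 ± 7.55, 9.43 ± 6.33 and 17.3 ± 5.33 RPKM for the stages in turn, and its change from D1 to D2, 1.003 ± 0.40, missed the threshold (limma adjusted p = 0.0699). PAL5 passed with library quality weights (limma adjusted p = 0.0262) and without replicate 2 of hybrid 89 in D2 (limma adjusted p = 0.0444).

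Against the control, PAL4 fell in D1 within hybrid 85, with a log2 change of -2.08 ± 0.35 (limma adjusted p = 0.00925) between 2 plants and 2. PAL3 and PAL4 were the 2 of 5 genes called lower there, where 3.4% of all genes tested were. It was not called without either D1 plant of hybrid 85 (limma adjusted p = 0.0791 and 0.0648). Within hybrid 89 its D1 change was -0.53 ± 0.35 (limma adjusted p = 0.385). There 0 of 5 genes were called, with 1 at unadjusted p below 0.05 (PAL3), and limma-voom also called 0. With median-ratio scaling 4 of 5 were at unadjusted p below 0.05, and 0 were called. In the reported limma fit, 5869 of the 24117 genes tested were at unadjusted p below 0.05, and 5.54% were called. The first of these counts was not taken with median-ratio scaling. For PAL4 the difference between the hybrids in the D1 change was 1.54 ± 0.50 (limma adjusted p = 0.177, unadjusted p = 0.0102), of which a shift of 0.30 is shared by the median of all genes. Over both hybrids the D1 change of PAL4, -1.31 ± 0.41, missed the threshold (limma adjusted p = 0.0864). It passed with median-ratio scaling, with library quality weights and with the D2 libraries left out of the fit (limma adjusted p = 0.0473, 0.0448 and 0.0460), and without replicate 2 of hybrid 89 in D1 (limma adjusted p = 0.0406). The D1 change of PAL5 was -0.97 ± 0.40 (limma adjusted p = 0.179), and within hybrid 85 -1.38 ± 0.40 (limma adjusted p = 0.0707). The change within hybrid 85 passed with library quality weights (limma adjusted p = 0.0427), which made 3 of 5 genes called there. With those weights 1114 of the 24117 genes tested were called lower there, against 820 in the reported fit. In D2 neither gene was called against C: the log2 change was 0.15 ± 0.41 for PAL4 and 0.03 ± 0.40 for PAL5 (limma adjusted p = 0.805 and 0.958), values whose sign turns with the scaling.

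**Figure D3:**
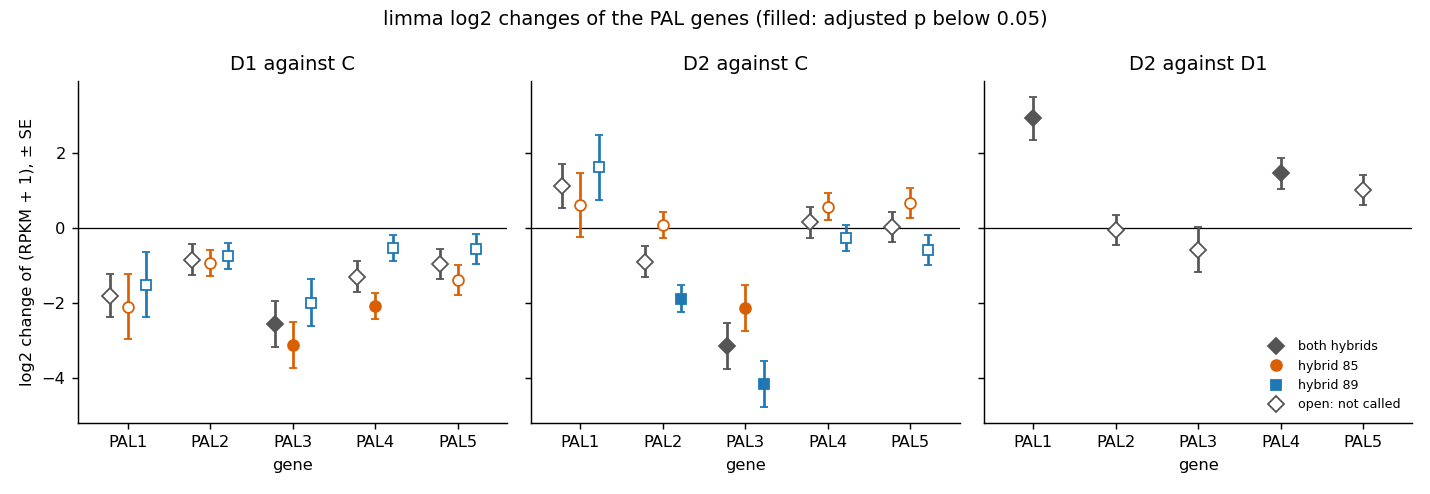
Log2 change of RPKM + 1, with its SE from limma, of each PAL gene between stages; grey diamonds are both hybrids, orange circles hybrid 85, blue squares hybrid 89, and filled symbols have adjusted p below 0.05. In D1 all values lie below 0, and in D2 against C the genes spread from -4.15 for PAL3 in hybrid 89 to 1.61 for PAL1 in hybrid 89.

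Of the 5 genes, 1 passed the test against C in each drought stage (PAL3, lower). The fitted log2 changes in D1 were all negative, from -2.55 to -0.84 with a median of -1.31, although the D1 and C plants overlapped in PAL2, PAL4 and PAL5. The median of all genes was 0.14 and the range from the 5th to the 95th percentile was -1.09 to 1.12. In D2 against C they ran from -3.14 to 1.11 with a median of 0.03, where the median of all genes was 0.07. The summed RPKM of the 5 genes was 340 to 902 for control plants, 118 to 284 for D1 plants and 438 to 685 for D2 plants. D1 lay below both other stages, and within D1 both plants of hybrid 85, at 133 and 118 RPKM, lay below those of hybrid 89, at 219 and 284 RPKM. Of single genes tested, 5.57% had D1 wholly below C and 14% had D1 wholly below D2. Within D1, 35.4% had hybrid 85 wholly below hybrid 89. The mean sum (± SD, n = 4) was 591 ± 250 RPKM for control plants, 189 ± 77.7 for D1 plants and 538 ± 109 for D2 plants, so C and D2 differed by less than their spread. These sums are a description and were not tested.

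The shares of the 5 genes in this sum are given as a description and were not tested. PAL1 made up 16.3 to 60.6% of the control sums, 13.9 to 37.8% of the D1 sums and 48.5 to 82.9% of the D2 sums. For PAL3 these shares were 19.3 to 25.7%, 10.8 to 11.6% and 0.753 to 12.1%. The share of PAL3 thus varied little within C and within D1, while its level varied 3.19-fold and 2.27-fold there. The C and D2 shares of PAL3 did not overlap, while those of the other 4 genes did. For PAL2 the shares were 9.58 to 41.4%, 40.6 to 52.2% and 5.71 to 23.7%. PAL4 made up at most 18.1% and PAL5 at most 7.11% of the sum in any plant.

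**Figure D4:**
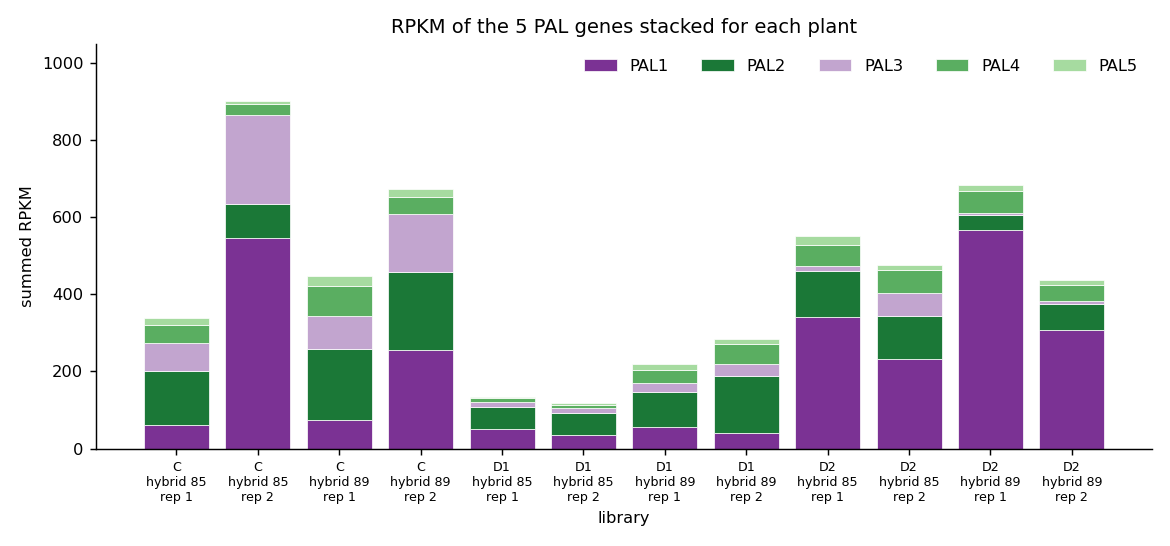
RPKM of PAL1 to PAL5 stacked for each of the 12 plants, in order of stage, hybrid and replicate. The D1 bars, 118 to 284 RPKM, are the lowest; PAL1 (dark purple) is the largest part of each D2 bar, at 48.5 to 82.9%, and PAL3 (light purple) makes up 0.753 to 12.1% there, the most in replicate 2 of hybrid 85.

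Over all stages no PAL gene was called between the hybrids. The log2 difference of hybrid 89 against hybrid 85 was 0.10 ± 0.47 for PAL1, 0.22 ± 0.33 for PAL2, -0.49 ± 0.49 for PAL3, 0.89 ± 0.34 for PAL4 and 0.71 ± 0.33 for PAL5 (SE, limma, 6 plants per hybrid). Both limma and limma-voom (the latter fitted to recovered reads) called 0 of 5, and limma had 2 of 5 at unadjusted p below 0.05 (PAL4, 0.0204, and PAL5, 0.0480; limma adjusted p = 0.184 and 0.272). By limma, 4340 of the 24117 genes tested were at unadjusted p below 0.05, and 2.94% were called. As a description of 2 plants against 2 in each stage, in D1 hybrid 89 was wholly above hybrid 85 in PAL2, PAL3, PAL4 and PAL5, where 35.4% of all genes were, and in D2 it was wholly below in PAL2 and PAL3, where 23.2% of all genes were. For PAL3 the D1 values were 25.5 and 30.7 RPKM in hybrid 89 against 14.6 and 13.5 in hybrid 85, and the D2 values 5.15 and 5.80 against 14.4 and 57.6.

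Tests of whether the hybrids differed in their drought change called 0 of 5 genes for D1 and 0 of 5 for D2 (limma). By limma at unadjusted p below 0.05 there were 1 and 3 of the 5, and 4042 and 4414 of the 24117 genes tested. For the 5 genes limma-voom also called 0 and 0. In the same tests 0 and 113 of all genes were called, 0% and 0.469%. For PAL3 the D2 change was -2.12 ± 0.62 in hybrid 85 (limma adjusted p = 0.0264; 1 of 5 genes, where 13.9% of all genes were called lower) and -4.15 ± 0.62 in hybrid 89 (limma adjusted p = 0.000484). The latter was -4.08 when replicate 1 of hybrid 89 in D2 was left out (limma adjusted p = 0.00319). The difference between the hybrids was -2.03 ± 0.87 (limma adjusted p = 0.251). The call in hybrid 85 was lost without replicate 2 in C or replicate 1 in D2 of that hybrid (limma adjusted p = 0.220 for each). In D1 PAL3 changed by -3.12 ± 0.62 in hybrid 85 (limma adjusted p = 0.0163), a call lost without replicate 2 in C or either D1 plant of that hybrid (limma adjusted p = 0.157, 0.114 and 0.0929). In hybrid 89 its D1 change was -1.99 ± 0.62 (limma adjusted p = 0.0862), which passed with the replicate block (limma adjusted p = 0.0459) and with library quality weights (0.0267). For PAL1 the changes within hybrids were not called: -2.10 ± 0.86 and -1.51 ± 0.86 in D1, and 0.61 ± 0.86 and 1.61 ± 0.86 in D2, for hybrid 85 and hybrid 89 in turn (limma adjusted p = 0.190, 0.311, 0.638 and 0.158). Without replicate 1 of hybrid 85 in C, the D1 change of PAL1 in hybrid 85 was -3.67 (limma adjusted p = 0.0124), and without replicate 1 or 2 of hybrid 85 in C its D2 change in hybrid 89 passed (limma adjusted p = 0.0411 and 0.0404). Its value there, 1.61, was the same with these plants left out, since they enter it only through the shared spread. With each library left out in turn this change of PAL1 ran from 0.71 to 2.50.

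The pairs of genes differed in how alike their patterns were. PAL4 and PAL5 kept a ratio of 1.67 to 4.04 in the 12 plants, the narrowest of the 10 pairs, while PAL1 over PAL3 ran from 0.840 to 110. Pearson's correlation of log2(RPKM + 1) over the 12 libraries was 0.92 for PAL4 with PAL5, and Spearman's rho of this pair was 0.70. By Pearson's correlation PAL4 was at rank 3 of the genes most like PAL5 among 15645 genes with a mean of at least 5 RPKM. Pearson's correlation was 0.70 for PAL2 with PAL3, 0.63 for PAL2 with PAL5, 0.54 for PAL2 with PAL4 and 0.03 for PAL1 with PAL3. These correlations describe 12 libraries that fall into stages and hybrids, and no p is given for them. How reads that fit both PAL4 and PAL5 were divided is not given, and its part in their likeness was not tested.

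Outside the family, the genes whose pattern was most like PAL1 were Potri.005G073300.1, Potri.015G089200.1 and Potri.014G023700.1, with correlations of 0.96, 0.94 and 0.93. For PAL2 they were Potri.019G130700.1, Potri.006G089000.1 and Potri.002G078600.1 (0.94, 0.91 and 0.90), and for PAL3 Potri.005G229500.1, Potri.001G011200.1 and Potri.004G030700.1 (0.94, 0.94 and 0.93). PAL4 was most like Potri.002G099200.1, Potri.006G033300.1 and Potri.017G000300.1 (0.96, 0.94 and 0.94). PAL5 was most like Potri.006G033300.1 and Potri.012G006400.1 (0.94 and 0.93), ahead of PAL4. Spearman's rho was lower for these, 0.83 to 0.88 for the 3 genes most like PAL4 and 0.65 and 0.83 for those most like PAL5, and it was 0.90 to 0.96 for the genes named for PAL1, PAL2 and PAL3. Potri.006G033300.1 thus stood among the 3 most alike genes of both neighbours. The files do not pair these IDs with names, so no role is given for them.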

How the data were processed

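Leaf RNA of 12 plants was sequenced from TruSeq libraries, per the labels' protocols. The authors deposited 1 table of RPKM per gene model and library, per the file headers. The submitters' processing notes list Trimmomatic 0.32. Not given in the sources used here: aligner, counter, use of strand, genome build and annotation. The authors' 3 stage means were not used. Columns were matched to samples by hybrid and clone number.

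Whole reads, library totals and coding lengths were recovered from the RPKM steps; with a tolerance of 0.01 reads, 100% of values above 0 came out whole. Intervals from reads cover counting error only. Values of log2(RPKM + 1) were tested with limma 3.58.1 in R 4.3.3 over 24117 genes (1 RPKM or more in 4 or more libraries), with stage and hybrid as additive terms, a trended variance and Benjamini-Hochberg adjustment over all genes (threshold 0.05). Such changes understate those of low genes. Contrasts within hybrids used 6 groups of 2 libraries. The fit and the recovery were tested on simulated data. Ratios between members were compared with exact permutation tests (scipy 1.17.1). All 5 PAL genes were named, and the 3 genes most correlated with each. The members, lists and tests were chosen with earlier results of these data known. The planned lists of pathway and marker genes were not run, as no annotation pairs IDs with names.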

Additional observations from a re-analysis of the deposited data

Results flagged for a closer look

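Within each stage, the highest and lowest plant of each PAL gene were checked for a gap to the nearest other plant that exceeds Dixon's critical value of 0.829 for 4 samples, as a part of the whole range. Of 15 such groups, 1 passed: PAL5 in D2, where replicate 1 of hybrid 85 stood at 25.2 RPKM and the other 3 plants at 13.9 to 15.0 RPKM, a gap of 0.899 of the range. The value rested on 121 reads, with a 95% exact Poisson interval of 20.9 to 30.1 RPKM. Chance marks about 1 in 20 groups, so 1 of 15 is near what chance gives. Without this plant the D2 change of PAL5 against C was -0.31 in place of 0.03, and neither was called (limma adjusted p = 0.543 and 0.958).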

How the results depend on the processing

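The rise of PAL1 from D1 to D2 (log2 changes 2.66 to 3.10) and the fall of PAL3 in D2 against C (-3.82 to -2.62) were called under all alternatives run. The number of the 5 genes called in D1 against C was 1. It was 0 with no filter on low values, 2 with median-ratio scaling or library quality weights, and 3 with only those stages fitted. Calls over all genes were 1342 of 24117 in the reported fit. In the same settings they were 985 of 34274, 1482 and 2663 of 24117, and 2137 of 22557. All genes called in D2 against C were 9407 with quantile normalization, in place of 9846. For D1 in hybrid 89 they were 3616 with quality weights and 959 with the replicate block, in place of 1335. The number of the 5 genes called was 2 in place of 1 in D2 against C with quantile normalization. It was 1 in place of 0 for D1 in hybrid 89 with quality weights or with the replicate block. With each library left out in turn the number ran from 0 to 2 in D1 and 1 to 2 in D2 against C, 1 to 3 in D2 against D1, 0 to 3 and 0 to 2 for D1 and D2 in hybrid 85, and 0 to 1 for the difference between hybrids in D2. Signs turned only in changes that were not called. In D2 against C, PAL5 was -0.021 with equal RPKM sums, -0.13 with quantile normalization, -0.12 with median-ratio scaling and -0.066 by limma-voom, and PAL4 was -0.14 and -0.0043 with quantile normalization and median-ratio scaling. PAL2 was -0.066 and -0.29 for D2 in hybrid 85 with equal sums and quantile normalization, -0.16 for the difference between hybrids in D1 with median-ratio scaling, and 0.25 in D2 against D1 with quality weights. With libraries left out, PAL1 ran from -0.96 to 2.18 for D2 in hybrid 85, from -0.98 to 2.16 and -0.58 to 2.56 for the differences between hybrids in D1 and D2, and from -0.22 to 0.56 between hybrids. PAL2 ran from -0.26 to 0.42 for D2 in hybrid 85, -0.33 to 0.35 in D2 against D1 and -0.17 to 0.56 for the difference in D1. PAL4 ran from -0.091 to 0.43 in D2 against C and -0.64 to 0.10 for that in hybrid 89, and PAL5 from -0.31 to 0.26 in D2 against C. The cause was not tested.

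Over all genes, calls in D1 against C went from 1342 to 2663 with quality weights, 2137 with only those stages fitted, and 678 to 2130 with libraries left out. Between hybrids they went from 709 to 455 with a 5 RPKM filter, 1284 with quality weights and 339 with a library left out, and for D1 in hybrid 89 from 1335 to 3616 and 150. For D1 and D2 in hybrid 85 and D2 in hybrid 89 the lowest counts with a library left out were 79, 3606 and 6396, in place of 1473, 6611 and 9689. The differences between hybrids gave 0 to 297 calls in D1 (0 in the reported fit) and 0 to 2470 in D2 (113). With the replicate block, all genes called for the difference in D2 were 37. Within a hybrid, replicate numbers showed little sign of pairing plants across stages. Deviations of same-numbered plants of a hybrid correlated at -0.04 to 0.08 across stages, and 2 of 6 were below 0. Whether same-numbered plants of both hybrids share a deviation within a stage was not tested. Median-ratio scaling moved the median change of all genes from 0.14 to -0.02 in D1 and from 0.07 to -0.05 in D2, and within hybrid 89 from 0.26 to -0.03 and from 0.18 to -0.04. The planned DESeq2 and edgeR fits were not run, since the deposited unit is RPKM. With 4 plants a stage, changes near the thresholds above rest on single plants.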
